A study of Mus musculus with 11 samples.

Results

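The red cell membrane and skeleton genes described here are Sptb, Ank1, Epb41, Epb42, Slc4a1, Add2, Kel and Rhag. They were taken as every probe annotated to any of these 8 gene symbols on Illumina MouseWG-6 v2 bead arrays, on 11 arrays of sorted mouse bone marrow cells. The annotation tied 17 of 45281 probes to 7 of the 8 genes and none to Epb41. Of the 7 genes, 6 passed the detection filter that left 11381 of 19057 named genes for testing, and Epb42 did not. A probe counted as detected on an array at a detection p under 0.05, and a gene was tested if its brightest probe was detected on at least 2 arrays.

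The red cell membrane is a lipid bilayer held up by a flat mesh of spectrin. Ankyrin ties that mesh to the anion exchanger band 3, with protein 4.2 and the Rh-associated glycoprotein in the same complex, and protein 4.1 and adducin tie it to actin at the junctions of the mesh, where the Kell protein is also anchored. In bone marrow these proteins are made as erythroblasts mature, and loss of spectrin, ankyrin, band 3 or protein 4.2 gives fragile, spherical red cells.

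All cells came from C57BL/6 mice and from the endosteal region of the bone marrow. Haemopoietic stem cells were sorted as LSK CD150+ CD48- cells (HSC, n = 2), where LSK is the usual name for cells without lineage markers that carry Sca-1 and Kit. The other groups were positive for FITC-AGE, a fluorescein-tagged reagent whose letters the labels do not spell out, and were CD31+ B220+ (n = 3), CD31+ B220- (n = 3) or CD31- B220- (n = 3, called double-negative here). The labels type all 3 fractions as scavenger endothelial cells. The source name of the CD31- B220- samples starts with HSC, against their title, and the title was used. No age, treatment or genotype beyond the strain is given, some RNA samples were pooled before labelling, and no label ties a replicate to its own animals, so p-values measure the spread between these samples.

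The HSC arrays were brighter before normalization, with a 75th percentile of probe intensity of 376.8 to 450.5 against 145.9 to 211.6 for the fractions. Of 8 endothelial markers, an array of the double-negative fraction detected 1 to 3 and an array of CD31+ B220+ cells 2 to 3. An HSC array detected 6 and an array of CD31+ B220- cells 6 to 7. Cdh5, Emcn, Stab2, Tek and Tie1 were detected on 0 of the 3 double-negative arrays, Kdr and Pecam1 (CD31) on 1, and Stab1 on all 3. The stem cell markers Kit and Meis1 were highest in HSC (13.24 ± 0.14 and 12.57 ± 0.04, SD, n = 2). Across the tested genes, replicate 3 of the double-negative fraction had a mean Pearson r of 0.914 with the arrays of CD31+ B220- cells, against 0.887 for its other replicates. In bulk samples of sorted cells, a smaller share of a cell type and less RNA per cell cannot be told apart.

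The question put to these genes was how the double-negative fraction, the other fractions and HSC differed in them. Sptb, Ank1, Slc4a1, Add2, Kel and Rhag were each far higher in double-negative cells than in any other group, by 17.4-fold to 74.3-fold as fitted. For all 6 its arrays lay above every array of HSC, CD31+ B220- and CD31+ B220+ cells, as they did for 31.2%, 17.4% and 25.6% of all tested genes. Add2 was detected on the double-negative arrays alone, so its direction was fixed by the detection filter. Epb42 was detected on no array. On the brightest probes, Slc4a1 was the 1 member called between the other groups, lower in both CD31+ fractions relative to HSC. With arrays scaled to a common median instead of quantile-normalized, 5 of 6 were called lower in each of these fractions. So were 7398 of 11391 tested genes in CD31+ B220- and 7666 in CD31+ B220+ cells.

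**Figure D1:**
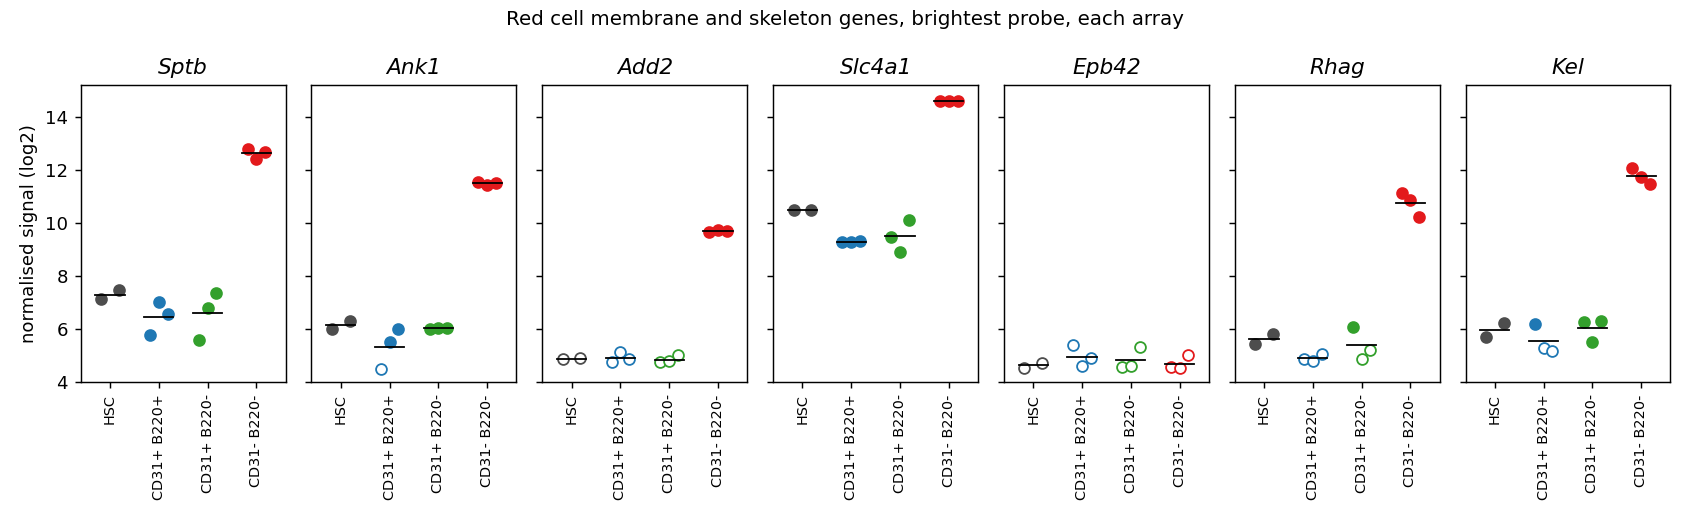
Normalised log2 signal of the brightest probe of each of the 7 genes with a probe, 1 point per array in each of the 4 groups, with the group mean as a line. Open points were not detected; the CD31- B220- arrays lie above all others in every panel except Epb42, which was not detected anywhere.

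Among the proteins of the mesh, Sptb encodes the beta chain of red cell spectrin. Its brightest probe (ILMN_2660754) had log2 signals of 12.78, 12.40 and 12.67 on the double-negative arrays. The signals were 7.11 and 7.44 in HSC, 5.74, 7.0 and 6.56 in CD31+ B220+ and 5.58, 6.79 and 7.36 in CD31+ B220- cells. The double-negative arrays thus stood apart, HSC lay just above the CD31+ B220+ arrays and overlapped with CD31+ B220- cells. The log2 difference was 5.34 ± 0.47 (SE) from HSC, or 40.6-fold (adjusted p = 3.11e-06, limma's moderated test with Benjamini-Hochberg adjustment, as throughout). It was 6.04 ± 0.42 from CD31+ B220- cells (65.8-fold, adjusted p = 1.02e-06), the 3rd highest of 11381 tested genes in that comparison, and 6.18 ± 0.42 from CD31+ B220+ cells (72.6-fold, adjusted p = 3.04e-07). The other 3 groups did not pass the test against each other (adjusted p = 0.167 to 0.835).

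The 4 other Sptb probes did not show this. On the double-negative arrays they had log2 signals of 4.43 to 5.26 and none was detected. ILMN_1226636, annotated through another transcript record than the rest, was detected on both HSC arrays (5.48 and 5.41) and on no other. Its fitted difference of the double-negative fraction from HSC was -0.65, opposite in sign to the brightest probe. With the undetected double-negative arrays set to the dimmest detected signal, no fold against HSC was left for it. It passed the detection filter through HSC alone, so these values are a description, with no test. ILMN_2909238 was detected on 1 array, of CD31+ B220- cells, and ILMN_2519255 and ILMN_2535419 on none. The rise of Sptb therefore rests on 1 of its 5 probes, and with the mean of all 5 probes the difference from HSC was 1.04 (adjusted p = 0.000116). The positions of the probes within the transcripts were not used here.

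Ank1 encodes ankyrin-1, the adaptor between spectrin and band 3. Its brightest probe (ILMN_2715601) gave 11.54, 11.40 and 11.50 in double-negative cells, 6.00 and 6.29 in HSC, and 5.98, 6.04 and 6.01 in CD31+ B220- cells. On the CD31+ B220+ arrays it gave 4.47, 5.50 and 5.99, the first of these not detected. The double-negative arrays differed among themselves by far less than the gap to the next group. The log2 difference was 5.34 ± 0.34 from HSC (40.4-fold, adjusted p = 3.12e-07), 5.47 ± 0.31 from CD31+ B220- cells (44.4-fold, adjusted p = 2.39e-07) and 6.17 ± 0.31 from CD31+ B220+ cells (71.8-fold, adjusted p = 2.73e-08). The second probe, ILMN_2609011, was detected on the double-negative arrays alone, at 7.41, 6.49 and 6.14. It was at least 2.66-fold higher there than in HSC, where it was not detected. A fit over the 22233 probes detected on at least 2 arrays called 42.9% of them between these groups. ILMN_2609011 entered that fit through the double-negative arrays alone, so its direction was fixed by the detection filter. Its fold is therefore a description, with no test. Both probes gave the same direction, but only that of ILMN_2715601 was free to vary.

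Add2 encodes beta-adducin, which caps actin filaments and binds them to spectrin. Its brightest probe (ILMN_2552900) gave 9.64, 9.71 and 9.68 in double-negative cells. In the other 8 arrays it lay between 4.72 and 5.10 and was never detected, so Add2 passed the detection filter through the double-negative fraction alone. With undetected arrays set to the lowest detected signal of the array where that was higher, Add2 was at least 21.3-fold higher than in HSC, at least 19.4-fold higher than in CD31+ B220- cells and at least 17.9-fold higher than in CD31+ B220+ cells. Because of that filter these values are a description, with no test. ILMN_1216675, at 8.95, 8.65 and 8.26, and ILMN_1254225, at 7.02, 6.64 and 6.10, were likewise detected in double-negative cells and nowhere else. ILMN_2819992 was detected on no array. Of the 4 Add2 probes, 3 were thus detected in this fraction alone, so the direction of each was fixed by the detection filter.

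**Figure D2:**
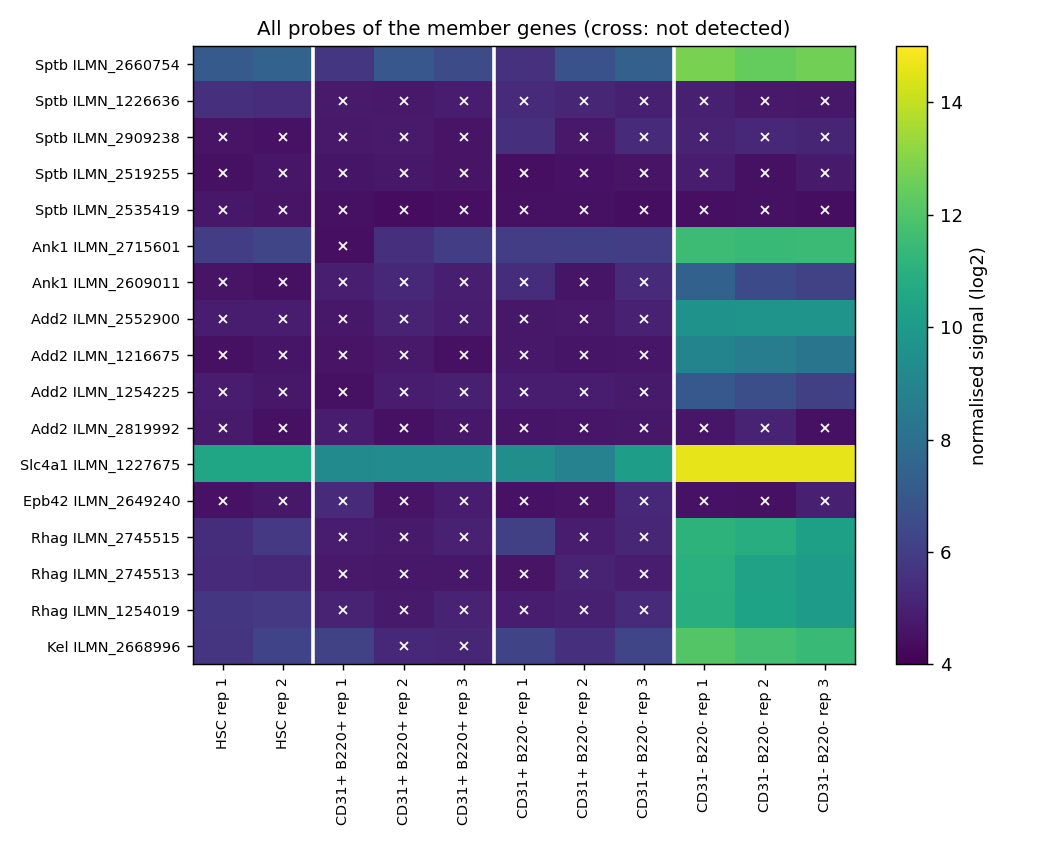
Normalised log2 signal (colour) of all 17 probes of the member genes on the 11 arrays, ordered by gene, with a cross where the probe was not detected. Sptb has 1 bright probe and 4 dim ones, while 3 of 4 Add2 probes, both Ank1 probes and all 3 Rhag probes are detected on the CD31- B220- arrays.

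Among the proteins set in the membrane, Slc4a1 encodes band 3, the chloride and bicarbonate exchanger. Like the brightest probe of Sptb, it was detected on all 11 arrays. Its single probe (ILMN_1227675) gave 14.58, 14.60 and 14.60 in double-negative cells, where 16 to 18 of the 45281 probes were brighter and the highest signal of an array was 14.89. These signals lay near the top of the scale. HSC had 10.49 and 10.46, CD31+ B220+ cells 9.25, 9.29 and 9.31, and CD31+ B220- cells 9.45, 8.89 and 10.10. The order of the groups was therefore CD31- B220-, HSC and then both CD31+ fractions. Slc4a1 was 17.4-fold higher in double-negative cells than in HSC (log2 difference 4.12 ± 0.28, adjusted p = 4.92e-07), 34.7-fold higher than in CD31+ B220- cells (5.12 ± 0.25, adjusted p = 1.04e-07) and 39.7-fold higher than in CD31+ B220+ cells (5.31 ± 0.25, adjusted p = 1.93e-08).

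On the brightest probes, Slc4a1 was also the 1 member called between other groups. Relative to HSC it was lower in CD31+ B220+ cells (-1.19 ± 0.28, adjusted p = 0.00482) and lower in CD31+ B220- cells (-0.996 ± 0.28, adjusted p = 0.0143). The call in CD31+ B220- cells ended without HSC replicate 1 (-1.01, adjusted p = 0.0752) and without HSC replicate 2 (-1.05, adjusted p = 0.0582), where 1 HSC array is left and is assumed to vary like the other groups. When arrays were scaled to a common median instead of quantile-normalized, the median of all genes against HSC moved to -1.21 for CD31+ B220+ and -1.12 for CD31+ B220- cells, and Slc4a1 to -2.58 and -2.23. The CD31+ fractions did not pass the test against each other (0.20 ± 0.25, adjusted p = 0.597).

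Rhag encodes the Rh-associated glycoprotein, which carries the Rh proteins to the membrane. Its brightest probe (ILMN_2745515) gave 11.13, 10.84 and 10.23 in double-negative cells and 5.42 and 5.81 in HSC. In CD31+ B220- cells it gave 6.07, 4.85 and 5.18, detected at the first value only, and in CD31+ B220+ cells 4.87, 4.77 and 5.03, never detected. Rhag was thus detected in HSC and in double-negative cells on every array and elsewhere on 1 of 6. It was 34.7-fold higher in double-negative cells than in HSC (5.12 ± 0.35, adjusted p = 5.14e-07), 41.4-fold higher than in CD31+ B220- cells (5.37 ± 0.31, adjusted p = 3.16e-07) and at least 37.2-fold higher than in CD31+ B220+ cells (adjusted p = 4.51e-08). ILMN_2745513 gave 10.99, 10.36 and 10.07, and ILMN_1254019 gave 10.88, 10.39 and 10.05, in double-negative cells. Replicate 3 was the lowest of the double-negative arrays on all 3 probes, and across the 11 arrays the r of these probes with the brightest was 0.986 and 0.987. In a fit over the 22233 probes detected on at least 2 arrays, ILMN_1254019 was called lower than HSC in both CD31+ fractions. The differences were -0.73 in CD31+ B220- (adjusted p = 0.0463) and -0.81 in CD31+ B220+ cells (adjusted p = 0.0267). It was detected on no array of these fractions, and neither other Rhag probe was called there. With undetected arrays set to the lowest detected signal where that was higher, at least 1.30-fold and 1.20-fold were left. Of all tested genes, on their brightest probes, 23.7% and 25.6% were lower than HSC in these fractions.

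Kel encodes the Kell glycoprotein, an endopeptidase that in humans carries the Kell blood group. Its probe (ILMN_2668996) gave 12.07, 11.71 and 11.46 in double-negative cells, 5.70 and 6.22 in HSC, and 6.25, 5.50 and 6.30 in CD31+ B220- cells. On the CD31+ B220+ arrays it gave 6.17, 5.27 and 5.16, detected at the first value only. Outside the double-negative fraction the groups overlapped. Kel was 55.3-fold higher in that fraction than in HSC (5.79 ± 0.35, adjusted p = 2.14e-07), 53.3-fold higher than in CD31+ B220- cells (5.73 ± 0.31, adjusted p = 1.97e-07) and 74.3-fold higher than in CD31+ B220+ cells (6.21 ± 0.31, adjusted p = 3.00e-08). By the size of the difference Kel ranked 15th, 8th and 20th of 11381 tested genes in these comparisons.

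Epb42 encodes protein 4.2, which binds band 3 and ankyrin and resembles transglutaminases without their activity. Its single probe (ILMN_2649240) was detected on 0 of 11 arrays and lay between 4.51 and 4.99 in double-negative cells and between 4.53 and 5.37 elsewhere. It therefore gave no measure of protein 4.2 mRNA beyond the limit of detection. Epb41, which encodes protein 4.1, had no annotated probe and has no value here.

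Counted over the 8 genes, 6 were higher in double-negative cells relative to HSC, 1 was not tested and 1 had no probe, beside 20.9% of all tested genes called higher and 28.3% lower in that comparison. The counts were the same against CD31+ B220- cells, where 12.1% of all tested genes were higher and 16% lower, and against CD31+ B220+ cells, where 22.5% were higher and 22.4% lower. Add2 entered the test through the double-negative arrays, so its direction was fixed by the detection filter. The other 5, detected on at least 2 arrays outside that fraction, were higher in each comparison, with medians of 5.34, 5.47 and 6.17 beside -0.05, -0.07 and -0.02 over all tested genes. Between CD31+ B220- cells and HSC 1 member was lower and 0 higher (23.7% and 17.6% of all tested genes), and between CD31+ B220+ cells and HSC again 1 and 0 (25.6% and 18.6%). With a common median 5 of 6 were lower in both comparisons, among them Sptb (-2.06 and -2.28) and Ank1 (-1.28 and -1.75). The medians of all genes were then -1.12 and -1.21, and 7398 and 7666 of 11391 tested genes were lower. No member was called between the CD31+ fractions by limma's test, where 35.3% of all tested genes were called (18.5% higher in CD31+ B220- cells, 16.8% lower). At an unadjusted p under 0.05 in that test there was 1, Ank1 (0.70 ± 0.31), which 1 CD31+ B220+ array did not detect. The 35.3% was counted at the adjusted threshold and is no background for it. The 3 comparisons with HSC share the 2 HSC arrays, and the 3 with double-negative cells share that fraction's arrays. Under each of 21 alternatives, the 5 members other than Add2 passed in each of the 3 comparisons of the double-negative fraction. All 6 differences kept their direction there. With a common median they were 3.51 to 4.94 above HSC, where the median of all genes was -1.06.

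Across the 11 arrays the 6 tested members followed each other closely, with pairwise Pearson r from 0.960 (Rhag with Sptb) to 0.990 (Kel with Rhag). These values describe arrays that share groups, and the gap between CD31- B220- and the rest enters every one of them. Ranked over 11380 other genes by r, the 100 nearest to Sptb, Ank1, Slc4a1 and Add2 held all 5 other members, and those nearest to Kel and to Rhag held 4, leaving out Sptb. The nearest genes to Sptb were Ces2g, Trim10 and Ubac1 (r = 0.989, 0.988 and 0.987), and to Ank1 Slc38a5, an amino acid transporter, Ubac1 and Cdr2 (0.996, 0.994 and 0.988). Slc4a1 was followed most closely by Hbb-b2, a beta-globin, 1300017J02Rik and Tspan8 (0.993, 0.990 and 0.990). For Add2 these were Tspo2, Pdia2 and Fgfr2 (0.997, 0.997 and 0.996), for Kel Snx22, Erich2 and Tac2 (0.995, 0.992 and 0.992), and for Rhag Popdc2, 2600006K01Rik and 6030468B19Rik (0.998, 0.994 and 0.994).

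The promoter windows of the members that moved together are shown for the 4 tested genes present in the RefSeq promoter table (GRCm38.p6), each 300 bases long, from 250 bases before the annotated start to 50 after, on the gene's strand. They lie at chr12:76710498-76710797 (minus strand, Sptb), chr6:86028431-86028730 (plus strand, Add2), chr17:40810899-40811198 (plus strand, Rhag) and chr6:41704276-41704575 (minus strand, Kel). Capitals mark GATA sites, searched by the letters AGATAA, by AGATAG, by TGATAA and by TGATAG, and CACC boxes, searched as CCNCNCCC, both on either strand, and overlapping matches run together.
Sptb: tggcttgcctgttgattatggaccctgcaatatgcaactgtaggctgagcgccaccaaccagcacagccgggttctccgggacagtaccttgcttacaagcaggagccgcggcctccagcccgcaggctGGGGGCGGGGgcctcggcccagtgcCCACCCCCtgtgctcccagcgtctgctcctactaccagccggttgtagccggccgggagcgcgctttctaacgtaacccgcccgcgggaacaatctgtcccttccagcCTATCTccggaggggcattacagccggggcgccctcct
Add2: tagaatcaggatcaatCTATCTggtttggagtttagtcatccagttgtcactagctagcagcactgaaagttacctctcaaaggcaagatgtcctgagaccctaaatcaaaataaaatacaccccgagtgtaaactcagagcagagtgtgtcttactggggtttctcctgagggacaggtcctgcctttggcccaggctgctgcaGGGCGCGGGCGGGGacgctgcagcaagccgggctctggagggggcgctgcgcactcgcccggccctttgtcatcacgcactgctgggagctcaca
Rhag: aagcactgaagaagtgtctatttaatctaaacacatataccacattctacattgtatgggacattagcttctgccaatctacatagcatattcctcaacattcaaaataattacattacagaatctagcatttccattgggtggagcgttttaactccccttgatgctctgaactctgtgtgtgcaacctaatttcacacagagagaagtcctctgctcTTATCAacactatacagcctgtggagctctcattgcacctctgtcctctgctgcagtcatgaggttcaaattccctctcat
Kel: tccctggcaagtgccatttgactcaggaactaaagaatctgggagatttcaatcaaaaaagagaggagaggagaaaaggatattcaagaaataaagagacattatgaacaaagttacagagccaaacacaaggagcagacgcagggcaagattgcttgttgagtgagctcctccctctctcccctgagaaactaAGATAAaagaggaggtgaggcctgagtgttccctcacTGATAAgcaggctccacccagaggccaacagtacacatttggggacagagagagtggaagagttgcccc
All 4 windows held a GATA site, as did 29.8% of all 32851 windows in the table, and 2 of 4 held a CACC box, as did 49.5% of all windows. The Rhag site lies at -31 to -26 from the start. The Kel window holds 2 GATA sites, at -56 to -51 and at -19 to -14, and no CACC box. The Sptb site lies 13 to 18 bases into the transcript, with 3 CACC boxes before the start. In Add2 the GATA site is at -234 to -229 and 2 overlapping CACC boxes lie between -45 and -32. A match describes the letters of the window and is no evidence of binding.

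In the wider set of red cell membrane and skeleton genes, more were higher than lower in double-negative cells. The split against HSC, but not against the CD31+ fractions, depended on the scaling. Of 36 listed genes, 33 had an annotated probe and 32 were tested, leaving out Slc16a1, which was detected on 1 array. A gene detected on the double-negative arrays alone, such as Rhd, had its direction fixed by the detection filter. Against HSC, 21 of 32 were higher and 2 lower (median 1.28; 20.9% and 28.3% of all tested genes). Scaling to a common median gave 9 higher and 9 lower, with a list median of 0.11 beside -1.06 for all genes. Of 11391 tested genes 8114 were then called, 13.4% of those higher. Against CD31+ B220- cells 21 were higher and 3 lower (median 1.48; 12.1% and 16% of all tested genes), and against CD31+ B220+ cells 22 were higher and 2 lower (median 1.77; 22.5% and 22.4%).

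Of the genes at the actin junction, Dmtn, which encodes the actin-bundling protein dematin, averaged 10.80 ± 0.32 (log2 signal, SD, n = 3) in double-negative cells against 5.38 ± 0.22 (n = 2) in HSC, detected there on 1 of 2 arrays. That difference was 42.8-fold (adjusted p = 2.68e-07), and against CD31+ B220- cells it was 38.7-fold (adjusted p = 2.85e-07). Tmod1, which caps the pointed ends of the junctional actin filaments, was at 9.35 ± 0.24 (n = 3) against 5.45 ± 0.16 (n = 2) in HSC and was detected in neither CD31+ fraction. The tropomyosin gene Tpm1 was called higher against both CD31+ fractions and not against HSC. Tpm3 was called lower against CD31+ B220- cells by -1.20 (adjusted p = 0.000382). Add1 and Add3, the other adducin genes, did not follow Add2. Add1 was called higher only against CD31+ B220- cells (1.01) and Add3 only against HSC (1.20). Actb, cytoplasmic actin, was called in none of the 3 comparisons.

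Of the membrane proteins that in humans carry blood groups, Ermap (Scianna) was at 11.49 ± 0.31 (n = 3) in double-negative cells and 5.67 ± 0.21 (n = 2) in HSC, a 56.8-fold difference (adjusted p = 3.42e-07). It was 51.5-fold higher than in CD31+ B220- cells and at least 62.9-fold higher than in CD31+ B220+ cells. Ackr1 (Duffy), a chemokine-binding receptor, was 32.6-fold higher than in HSC (adjusted p = 7.97e-08) and 38.1-fold higher than in CD31+ B220- cells. Its HSC mean was 5.24, near the limit of detection, and it was detected there on 1 of 2 arrays. Rhd, the Rh protein itself, was detected on the 3 double-negative arrays (7.74 ± 0.54, n = 3) and nowhere else. The direction of Rhd was thus fixed by the detection filter, and its values are a description, with no test. Xk, the partner of Kell, was at 8.5 ± 0.38 (n = 3) against 6.94 ± 0.15 (n = 2) in HSC, and Icam4, the Landsteiner-Wiener antigen, at 10.94 ± 0.11 (n = 3) against 7.25 ± 0.52 (n = 2); both were called higher in all 3 comparisons. Art4 (Dombrock) stood apart from these. It was higher than in either CD31+ fraction, at 9.33 ± 0.34 (n = 3), yet 10.07 in HSC, and that last difference (-0.74) did not pass.

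Among transporters, Aqp1, the water channel, was at 13.87 ± 0.17 (n = 3) in double-negative cells, above HSC by 3.41, CD31+ B220- cells by 4.23 and CD31+ B220+ cells by 6.00. The complement inhibitor gene Cd59a was at least 49.7-fold higher than in CD31+ B220+ cells (adjusted p = 5.50e-09) and differed from HSC by 1.28. Slc2a1, the glucose transporter GLUT1, went the other way, at 8.21 ± 0.23 (n = 3), and was called lower in all 3 comparisons (-1.32 from HSC, -0.95 from CD31+ B220- and -0.99 from CD31+ B220+ cells). Flot1 was lower than in HSC (-1.53), Flot2 lower than in CD31+ B220- cells (-0.96) and Cd55 lower than in CD31+ B220+ cells (-1.31). The calls of Gypc, Flot2, Piezo1 and Atp2b4 as higher than HSC turned to -0.21, -0.48, -0.58 and -1.04 with a common median. Cd47, Bsg and Bcam were called in none of these comparisons.

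**Figure D3:**
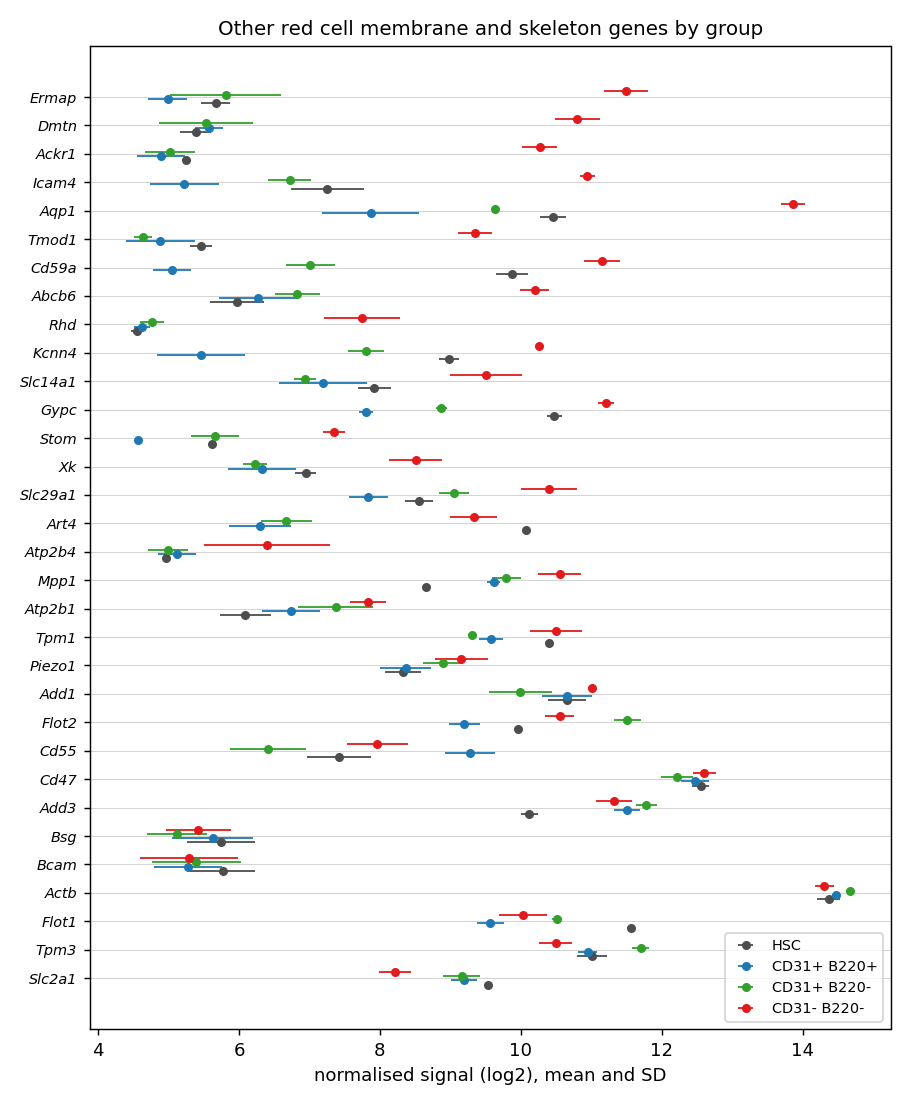
Mean and SD of the normalised log2 signal of the 32 tested genes of the wider membrane set in the 4 groups, ordered by the difference of CD31- B220- from the mean of the other groups. Ermap has a CD31- B220- mean of 11.49 against 5.67 in HSC, and Slc2a1 one of 8.21 against 9.53.

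Between CD31+ B220- cells and HSC 6 of 32 genes of the wider set were higher and 9 lower, close to the 17.6% and 23.7% of all tested genes. With a common median 1 was higher and 22 lower, beside 900 and 7398 of 11391 tested genes. Art4 (-3.40), Cd59a (-2.86) and Gypc (-1.60) were lower, while Add3 (1.66), Flot2 (1.56) and Atp2b1 (1.28) were higher. In CD31+ B220+ cells 3 were higher and 11 lower (18.6% and 25.6% of all tested genes). With a common median the counts were 0 and 26, beside 780 and 7666 of 11391 tested genes. Cd59a was at least 20.4-fold lower than in HSC (adjusted p = 6.33e-08), Art4 13.7-fold and Kcnn4, the calcium-activated potassium channel of red cells, 11.5-fold lower. Between the CD31+ fractions 10 genes were higher in CD31+ B220- cells and 1, Cd55, lower (18.5% and 16.8% of all tested genes).

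The members belong to families with relatives used by other cells. Of 27 listed relatives, 22 had a probe and 17 were tested. Against HSC 0 were higher in double-negative cells and 9 lower (median -0.61; 20.9% and 28.3% of all tested genes). With a common median 2 were higher and 13 lower (median -1.44, beside -1.06 for all genes). Of 11391 tested genes 8114 were then called, 13.4% of those higher. Against CD31+ B220- cells 1 was higher and 7 lower (12.1% and 16% of all tested genes). Against CD31+ B220+ cells 1 was higher and 4 lower (22.5% and 22.4%), the lower share being near that of all genes.

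Sptbn1, the beta-spectrin of most other cells, ran opposite to the brightest Sptb probe. It was at 5.01 ± 0.40 (n = 3) in double-negative cells, detected on 1 of 3 arrays, and at 7.90 ± 0.07 (n = 2) in HSC (-2.88, adjusted p = 0.000229), with -2.89 and -2.77 from the CD31+ B220- and CD31+ B220+ fractions. Slc4a2, the anion exchanger of many tissues, was lower than in CD31+ B220+ cells (-1.26, adjusted p = 9.58e-05) and CD31+ B220- cells (-0.65) and did not pass against HSC (-0.11). Of the protein 4.1 relatives, Epb41l3 was lower than in HSC by -4.45 (adjusted p = 5.68e-07) and Epb41l2 was lower than in both CD31+ fractions (-2.08 and -1.35). Ank2 was called in no comparison, and Ank3, Rhbg and Rhcg were not tested because fewer than 2 arrays detected them. Tgm2, an active transglutaminase related to Epb42, was the 1 relative higher than in the CD31+ fractions. It was at 10.997 ± 0.14 (n = 3), above CD31+ B220- cells by 3.05 (adjusted p = 2.92e-06) and above CD31+ B220+ cells by 5.85 (adjusted p = 7.80e-09), and below HSC by -1.32.

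**Figure D4:**
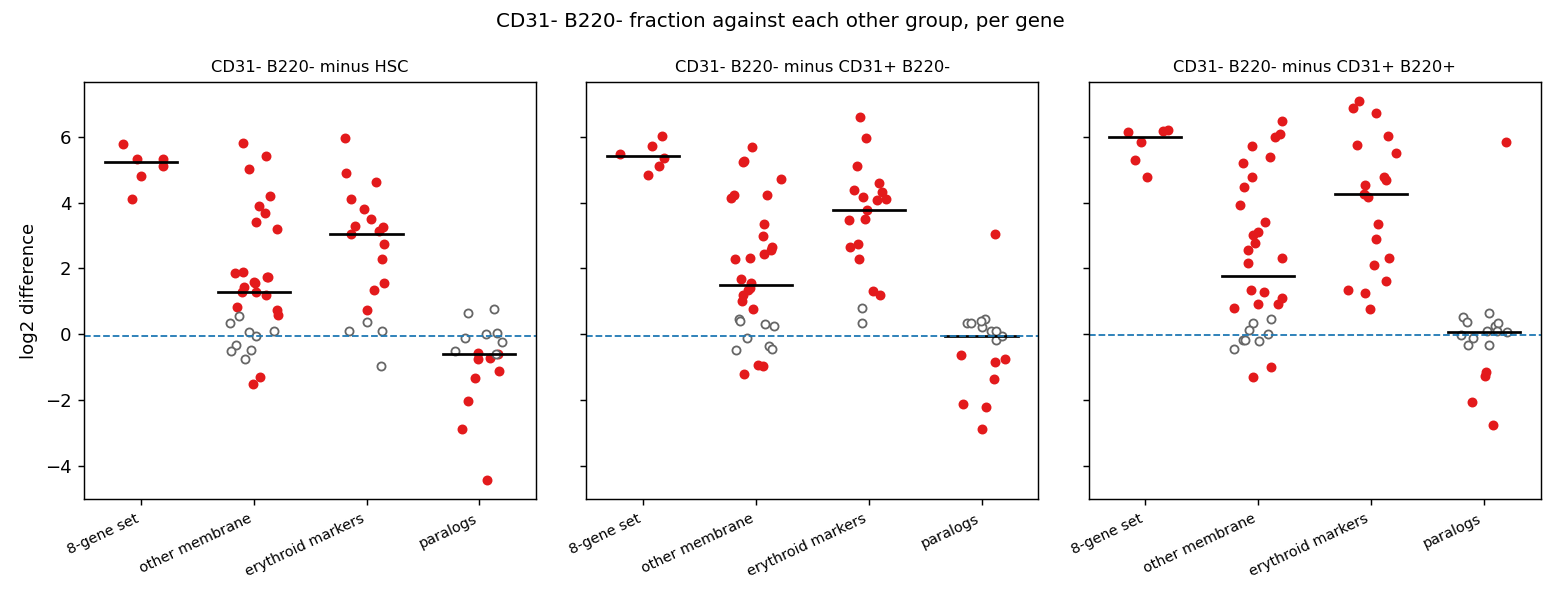
Log2 difference of the CD31- B220- fraction from HSC (left), CD31+ B220- (middle) and CD31+ B220+ cells (right), 1 point per tested gene: the 6 tested members, 32 other membrane genes, 19 erythroid markers and 17 relatives of the members. Filled points passed adjusted p under 0.05, black lines are list medians and the dashed line is the median of all tested genes; the members lie between 4.12 and 6.21, and the medians of the relatives are -0.61, -0.07 and 0.07 from left to right.

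Markers of the red cell lineage moved with the members. Of 23 listed erythroid markers 19 were tested, and in double-negative cells 15 were higher relative to HSC, 17 relative to CD31+ B220- and 19 relative to CD31+ B220+ cells (20.9%, 12.1% and 22.5% of all tested genes), with 0 lower. With a common median 13 were higher than HSC and 1 lower, while 8114 of 11391 tested genes were called, 13.4% of those higher. Their summed linear signal was 126342 to 146063 in double-negative arrays, 77750 to 84229 in HSC, 33264 to 58153 in CD31+ B220- and 31223 to 51903 in CD31+ B220+ arrays. Klf1, the erythroid Krüppel-like factor, was at 12.23 ± 0.20 (n = 3) against 7.61 ± 0.04 (n = 2) in HSC, and Trim10 at 12.05 ± 0.20 (n = 3) against 7.14 ± 0.10 (n = 2). Car1, a carbonic anhydrase, differed from HSC by 5.96 and Alas2, the erythroid enzyme of haem synthesis, from CD31+ B220- cells by 5.12. No marker was undetected in double-negative cells, while Gata1, Sox6 and Hbb-b2 were detected in HSC and on no array of the CD31+ fractions. The part of red cell precursors in the members' difference was not tested.

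Globin probes Hba-a1 and Hbb-bs were bright in every group. Named here after their values were seen, Hba-a1 was at 14.43 ± 0.03 (SD, n = 3) in double-negative cells and 14.06 ± 0.21 (n = 2) in HSC. The CD31+ fractions had 13.13 ± 0.64 (B220-, n = 3) and 13.09 ± 0.58 (B220+, n = 3). Its difference from HSC (0.37) did not pass, nor did that of Hbb-bs (0.09). The highest signal on an array was 14.89, so these probes lay near the top of the scale. Like Slc4a1, Hbb-bs was lower than HSC in CD31+ B220- (-1.10) and CD31+ B220+ cells (-1.16).

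Markers of other cell types also differed between the groups. Relative to HSC, stromal markers were higher in double-negative cells for 3 of 4 tested, with summed signals of 5355 to 7647 against 249 to 345, and neutrophil markers for 4 of 5 (17525 to 40249 against 3932 to 4464). Macrophage markers were higher for 4 of 6 (2162 to 2863 against 271 to 321). In CD31+ B220- arrays the sums were 44062 to 46952 for neutrophil, 2838 to 3624 for macrophage and 186 to 567 for stromal markers. B lineage markers summed to 408 to 695 in double-negative cells and 38767 to 40493 in CD31+ B220+ cells. Megakaryocyte markers were lower than in HSC for 6 of 7 and higher for 0. Of all tested genes 20.9% were higher and 28.3% lower. With a common median the counts against HSC were 2 higher and 1 lower for stromal and 3 and 0 for neutrophil markers. For macrophage markers they were 3 and 2, and for megakaryocyte markers 0 and 7. Under that scaling 8114 of 11391 tested genes were called, 13.4% of those higher. The part of these cells in the members' values was not tested.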

How the data were processed

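Expression was measured on 11 Illumina MouseWG-6 v2 arrays. The authors deposited bead intensity values without background subtraction, in a table called non-normalized, and beside each a fraction headed as a detection p-value, per the file headers. That deposited fraction rose with intensity, so 1 minus it was used as the detection p. The deposited series values were taken as log2 from their range; the base is not stated, and lumi 1.1.0 is named, with no role, per the submitters' processing notes. Nothing further on the upstream steps is given in the sources used here.

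Intensities were background-corrected by normexp from the detection p, quantile-normalized and log2-transformed with an offset of 16 (neqc, limma 3.58.1, R 4.3.3, data.table version 1.17.8). Of 45281 probes, 34885 carried 1 gene symbol, 18 several and 10378 none. The brightest probe stood for each gene. A linear model with a mean per group was fitted to the 11 arrays together, and contrasts were tested 2-sided with limma's moderated test, adjusted by Benjamini-Hochberg over 11381 genes at 0.05. The fit was tested on simulated data. A second fit took all 22233 detected probes singly. "At least" folds use, per undetected array, whichever is higher of its own signal and the dimmest detected one. The number of arrays limits the precision.

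Named genes were the members, the 3 largest called differences per direction in each other list, and the 3 nearest genes of each member; further list genes are named to fill out a protein family and were chosen after their values were seen. The members and lists were chosen with earlier results of these data known. Alternatives were the scaling, background correction, filter, probe choice, groups in the fit, replicate block, offset, deposited values and leaving out each array. Deviations of same-numbered arrays of different groups correlated at -0.07 to 0.18 over 15 pairs, 1 of them over 0.1. The 30 other pairs gave -0.15 to 0.15, 2 of them over 0.1. Deviations within a group of 2 or 3 arrays are tied to each other, so these values cannot exclude pairing. Replicate numbers were taken as names only.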

Additional observations from a re-analysis of the deposited data

How the results depend on the processing

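The calls of the 5 members other than Add2 in the 3 comparisons of CD31- B220- cells held under all 21 alternatives. Add2 kept its direction, which the detection filter had fixed. The log2 differences of all 6 members were 1.04 to 6.44 from HSC, 1.16 to 6.51 from CD31+ B220- and 1.34 to 7.42 from CD31+ B220+ cells. The lowest are Sptb with all its probes averaged. The number of arrays limits the other comparisons, as does the dim signal of Add2, Rhag, Kel and Ank1 outside CD31- B220- cells. With a common median, 5 members and 23 other membrane genes were called in CD31+ B220- against HSC, and 5 and 26 in CD31+ B220+ against HSC; the medians of all genes there were -1.12 and -1.21, 8298 and 8446 of all genes were called against 4704 and 5029, and 10.8% and 9.24% of the calls were higher against 42.7% and 42.1%. For CD31- B220- against HSC the share was 13.4% against 42.4%. For CD31+ B220- against CD31+ B220+ cells it was 63.7% against 52.5%. In CD31+ B220+ against HSC, 2 members were called with all probes averaged (Rhag added), with the compared groups only (Rhag added) and with a replicate block (Ank1 added, -0.95, adjusted p = 0.0448). The block changed no other member's call. The cause of these changes was not tested. Leaving out 1 array gave 0 to 1 members called in CD31+ B220- against HSC, 1 to 2 in CD31+ B220+ against HSC and 0 to 1 between the CD31+ fractions, where Ank1 passed without CD31+ B220+ replicate 3 (1.05, adjusted p = 0.0145). Without that array Ank1 was also lower than HSC (-1.19, adjusted p = 0.00953), and without CD31+ B220- replicate 1 Rhag was (-0.75, adjusted p = 0.0452). Without HSC replicate 1, 2876 and 3349 of all genes were called in the CD31+ B220- and CD31+ B220+ comparisons with HSC.

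Signs turned only where a member was not called in the first place. In CD31+ B220- against HSC, a common median gave 0.0432 for Add2 and -1.03 for Kel (adjusted p = 0.00689), and averaging all probes gave 0.22 for Ank1 and 0.0438 for Add2. Averaging also gave 0.0142 for Add2 between the CD31+ fractions. Leaving out 1 array turned signs within -0.12 to 0.0227 for Add2, -0.26 to 0.00617 for Ank1, -0.18 to 0.31 for Kel and -0.62 to 0.00491 for Rhag in CD31+ B220- against HSC, and -0.0845 to 0.11 for Add2 in CD31+ B220+ against HSC. Between the CD31+ fractions the ranges were -0.26 to 0.65 for Sptb, -0.11 to 0.49 for Slc4a1 and -0.15 to 0.0537 for Add2.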
